A study of Homo sapiens with 4 samples.

Results

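The promoters of 6 neural POU transcription factor genes, POU3F1, POU3F2, POU3F3, POU4F1, POU4F2 and POU4F3, were examined for 2 histone marks in JMJD3c-hESCs. They were taken by gene symbol and are 6 of the 20242 promoters measured. JMJD3c-hESCs were made from SEES-3, a human embryonic stem cell line, that already expressed the reverse Tet-transactivator. They carry the catalytic part of the H3K27 demethylase JMJD3 under a Tet-responsive element, inserted with a piggyBac vector and selected with puromycin. Doxycycline (Dox) at 1 µg/ml switches the domain on, and cells with (+Dox) or without Dox (−Dox), both in StemFit AK-03 medium, were collected on day 3. H3K27me3, the Polycomb mark of repressed chromatin, and H3K4me3, the mark of active and poised promoters, were each measured by ChIP-seq in 1 library per condition. With 1 library per group no difference has a replicate check and no p-value is given. A line given Dox without an active JMJD3c was not analysed here, so Dox itself and JMJD3c cannot be told apart in these libraries, and whether the cells were 1 clone is not stated.

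POU proteins bind DNA through a POU-specific domain and a POU homeodomain joined by a flexible linker. The class III genes (POU3F) act mainly in neural progenitors and glia. POU3F1 (also called OCT6 or SCIP) is known from myelinating Schwann cells, and POU3F2 and POU3F3 (BRN2 and BRN1) from the developing cortex and hypothalamus. The class IV genes (POU4F, the BRN3 group) act in sensory neurons as these cells leave the cell cycle. POU4F1 is known from somatosensory ganglia, POU4F2 from retinal ganglion cells and POU4F3 from the hair cells of the inner ear. In pluripotent cells promoters of such lineage regulators often carry both marks at once, a state called bivalent, which is thought to hold a gene silent but ready for use.

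The sequences directly before the start held different short motifs in the POU3F and POU4F genes. The 250 bases before the start were taken from RefSeq promoters, and each of the 6 stretches was found once, letter for letter, in the GRCh37 window of its gene, ending at the start used here. The CCAAT motif, searched on both strands as CCAAT and ATTGG, was found in 3 of 3 POU3F stretches and in 0 of 3 POU4F stretches, and in 32.0% of 35116 RefSeq stretches of the same length. TATAA, searched as TATAA and TTATA, was found in 0 of 3 POU3F and 3 of 3 POU4F stretches, and in 18.9% of all stretches. The octamer ATGCAAAT that POU proteins bind was found in 0 of the 6 and in 1.63% of all stretches. CCAAT and TATAA were chosen after the sequences were seen, and a match is not evidence that a factor binds. The stretches shown are from POU3F1, whose H3K27me3 ratio was the lowest of the 6, from POU3F3 as a second gene of its class, and from POU4F2 and POU4F3, in which TATAA begins 30 bases before the start. Capitals mark CCAAT or TATAA, and all are written 5′ to 3′ on the strand of the gene.
POU3F1 (GRCh37, chr1:38512466-38512715, minus strand): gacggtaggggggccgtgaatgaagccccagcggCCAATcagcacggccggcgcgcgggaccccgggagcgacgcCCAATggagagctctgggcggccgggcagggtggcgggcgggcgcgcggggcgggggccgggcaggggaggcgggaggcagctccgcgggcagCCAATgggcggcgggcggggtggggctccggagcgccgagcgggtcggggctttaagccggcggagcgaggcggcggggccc
POU3F3 (GRCh37, chr2:105470323-105470572, plus strand): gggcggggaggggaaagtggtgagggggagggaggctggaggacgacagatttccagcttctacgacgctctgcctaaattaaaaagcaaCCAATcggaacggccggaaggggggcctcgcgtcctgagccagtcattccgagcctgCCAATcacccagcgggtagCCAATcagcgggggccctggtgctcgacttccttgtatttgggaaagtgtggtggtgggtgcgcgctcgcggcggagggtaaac
POU4F2 (GRCh37, chr4:147559795-147560044, plus strand): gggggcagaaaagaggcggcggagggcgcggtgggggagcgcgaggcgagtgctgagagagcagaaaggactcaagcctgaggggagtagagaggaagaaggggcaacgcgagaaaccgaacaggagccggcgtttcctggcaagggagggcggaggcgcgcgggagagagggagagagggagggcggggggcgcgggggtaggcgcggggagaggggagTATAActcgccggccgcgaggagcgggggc
POU4F3 (GRCh37, chr5:145718152-145718401, plus strand): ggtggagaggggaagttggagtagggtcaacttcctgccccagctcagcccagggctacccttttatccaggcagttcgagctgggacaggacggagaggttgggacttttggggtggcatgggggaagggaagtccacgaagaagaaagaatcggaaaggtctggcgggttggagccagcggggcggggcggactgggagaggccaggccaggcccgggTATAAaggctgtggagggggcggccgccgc

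In POU3F1 and POU3F3 CCAAT was found 3 times each, and in POU3F2 it was found 2 times. In POU4F1, TATAA was found once, but 217 bases before the start, far from the place of a TATA box. The wider windows, 3 kb on each side of the start, were rich in CpG dinucleotides. They held 457 CpGs in POU3F1, 379 in POU3F2, 511 in POU3F3, 366 in POU4F1, 316 in POU4F2 and 246 in POU4F3, against a median of 156 over 18225 promoters and of 219 over 1747 bivalent promoters with a window. POU4F3, with the fewest CpGs of the 6, still held more than 62.7% of the bivalent promoters. The median was higher, 287, over the 272 bivalent promoters with a window and a −Dox H3K27me3 signal of at least 100. POU4F3, which belongs to that group, lay below this median, and POU4F2 lay not far above it. The POU3F genes are annotated with 1 exon in the transcripts used here, whereas the POU4F genes have 2.

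All 6 promoters were bivalent in −Dox cells, that is, above a signal of 20 for both marks, whereas 9.42% of all promoters were. Values are coverage scaled to the reads of a library and summed over the window, which has the same length for every gene. In −Dox cells this threshold was equal to about 15.8 reads for H3K27me3 and 21.1 reads for H3K4me3. H3K27me3 in −Dox cells was 194 at POU4F3, 168 at POU4F1, 163 at POU3F2, 133 at POU3F3, 126 at POU4F2 and 73.8 at POU3F1. The upper 5 promoters lay between the percentiles 98.8 and 99.6 of all promoters for this mark, and POU3F1 lay at 97.0. Neighbours among the upper 5 differed by less than counting error. Over wider steps POU4F3 exceeded POU3F3 by a read ratio of 1.46 (1.13 to 1.89) and POU4F2 by 1.53 (1.18 to 1.99), and POU4F1 exceeded POU4F2 by 1.33 (1.02 to 1.74). POU4F2, the lowest of them, exceeded POU3F1 by a read ratio of 1.72 (95% interval 1.24 to 2.43).

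H3K4me3 in −Dox cells followed another order. It was 81.8 at POU3F1, 56.1 at POU3F2, 49.0 at POU4F1, 39.0 at POU3F3, 32.8 at POU4F3 and 30.5 at POU4F2. The promoter with the least H3K27me3 thus had the most H3K4me3, and its read ratio to the next promoter, POU3F2, was 1.46 (1.03 to 2.07). The other neighbours differed by less than counting error. Unlike for H3K27me3, these levels were ordinary, with POU3F1 at percentile 81.5 and the others between 42.3 and 62.6 of all promoters. At a threshold of 40 for both marks, 3 of the 6 promoters would be called bivalent.

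**Figure D1:**
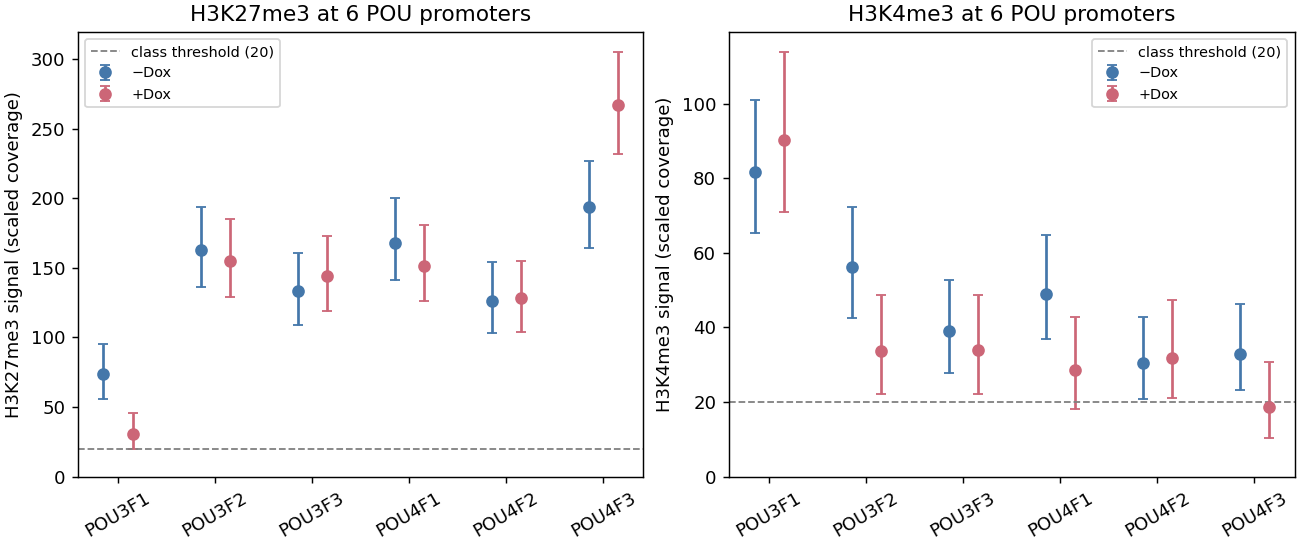
Signal of H3K27me3 (left) and H3K4me3 (right) at the 6 promoters, in scaled coverage, for −Dox (blue) and +Dox (red), 1 library each. Bars are 95% exact Poisson intervals of the approximate reads and cover counting error only, and the dashed line is the class threshold of 20. For H3K27me3, POU3F1 lies at 73.8 and 30.6 and the other promoters between 126 and 267.

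Whether induction of JMJD3c lowered H3K27me3 at these promoters was examined next. POU3F1 (ENSG00000185668, chromosome 1, window 38509465 to 38515465) had H3K27me3 signals of 73.8 without and 30.6 with Dox, about 58 and 25 reads. Its +Dox/−Dox ratio was 0.414 (0.253 to 0.686), and it was the 1 promoter of the 6 with a ratio below 0.5, as against 21.5% of all promoters with a ratio and 40.8% of bivalent promoters. It was also the 1 promoter of the 6 whose ratio interval lay below 1, which was so for 6.99% of all and 48.1% of bivalent promoters. Its signal in +Dox cells was still above 20. With equal totals for both libraries the interval, 0.298 to 0.807, was also below 1.

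The other class III promoters did not show such a difference. POU3F2 (ENSG00000184486, chromosome 6, 99279450 to 99285450) had H3K27me3 signals of 163 and 155, a ratio of 0.948 (0.737 to 1.22). POU3F3 (ENSG00000198914, chromosome 2, 105467573 to 105473573) had signals of 133 and 144, a ratio of 1.08 (0.825 to 1.42). At neither gene could a difference be seen beyond counting error. From rounded approximate reads, the POU3F1 ratio was estimated as 0.446 times that of POU3F2 (0.251 to 0.776) and 0.391 times that of POU3F3 (0.218 to 0.688).

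Among the class IV genes, POU4F1 (ENSG00000152192, chromosome 13, 79174687 to 79180687), the somatosensory factor, had H3K27me3 signals of 168 and 151, a ratio of 0.898 (0.698 to 1.16). POU4F2 (ENSG00000151615, chromosome 4, 147557045 to 147563045), the retinal ganglion cell factor, had signals of 126 and 128, a ratio of 1.02 (0.759 to 1.34). No difference was detectable at these 2 genes at this depth. POU4F3 (ENSG00000091010, chromosome 5, 145715402 to 145721402 around the start of its current transcript, since the deposited transcript was not in the annotation) had signals of 194 and 267, about 153 and 215 reads. Its ratio of 1.38 (1.11 to 1.71) was the 1 ratio of the 6 with an interval above 1, which was found at 1.62% of all promoters and at 8.88% of the 304 bivalent promoters with a −Dox H3K27me3 signal of at least 100. This share depends on the scaling and the grouping. It was 23.0% of the 304 with equal library totals, and 18.5% of the 298 promoters whose mean signal over both conditions was at least 100. In +Dox cells POU4F3 stood apart from the other 5 promoters, with a read ratio of 1.72 (1.37 to 2.16) to the next one, POU3F2. A ratio above 1 is relative to the rest of the library and does not show a gain in the amount of the mark.

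**Figure D2:**
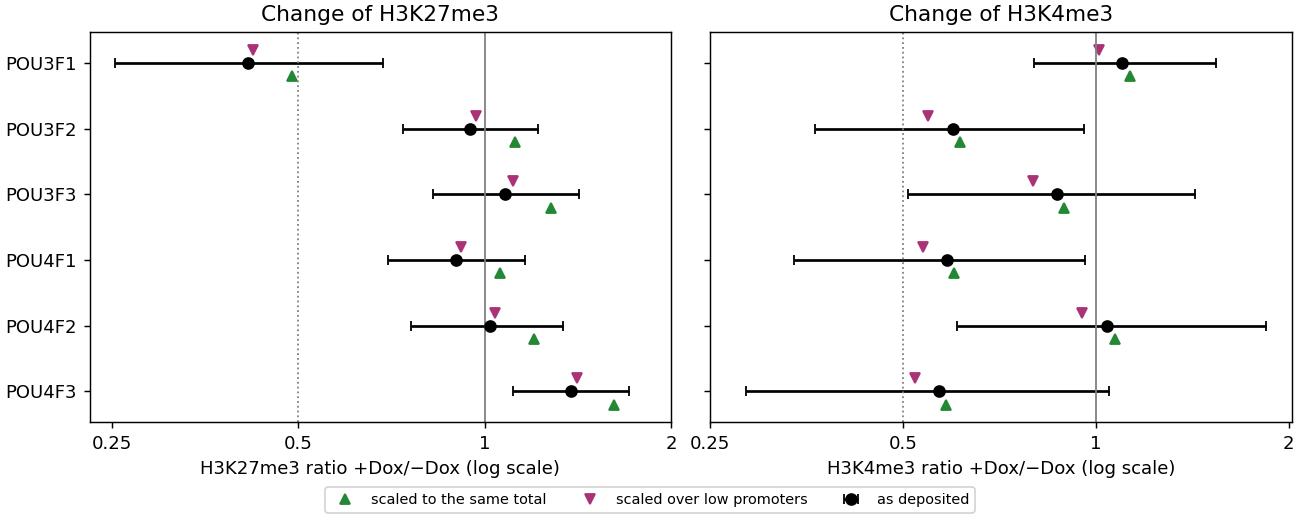
Ratio of +Dox to −Dox signal at each promoter on a log scale, for H3K27me3 (left) and H3K4me3 (right), with 95% intervals of counting error for the deposited values (black). Triangles give the ratio after both alternative scalings, the solid line marks 1 and the dotted line 0.5. The H3K27me3 interval of POU3F1 lies below 1 and that of POU4F3 above 1.

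Pairs of promoters were compared in their H3K27me3 ratios by exact conditional intervals, which do not depend on how the libraries were scaled. Of 15 pairs, 7 had a ratio of ratios whose 95% interval excluded 1, and 4 did with intervals widened for 15 comparisons. All 4 of these paired POU3F1 with another gene, namely POU3F2, POU3F3, POU4F2 and POU4F3. Their widened upper bounds were 0.998 with POU3F2, 0.962 with POU4F2, 0.888 with POU3F3 and 0.669 with POU4F3. The bound for POU3F2 is so close to 1 that this call is fragile. For POU3F1 and POU4F1 the ratio of ratios was 0.471 with a widened interval of 0.200 to 1.05. The widened intervals of the pairs without POU3F1 all included 1, for example 0.431 to 1.25 for POU4F2 and POU4F3, so sizeable differences among these 5 genes are not shown to be absent.

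The median log2 H3K27me3 ratio of the 6 promoters was −0.03, against −0.15 over all promoters with a ratio, −0.81 over the 1907 bivalent promoters and −0.22 over the 304 bivalent promoters with a −Dox signal of at least 100. The comparison depends on the level, since 5 of the 6 genes belong to those 304. Within them 34.9% had an interval below 1, and 0 of the 5 POU genes did. With equal library totals 22.0% of the 304 had an interval below 1, fewer than the 23.0% above 1. POU4F1, POU3F2, POU4F2, POU3F3 and POU4F3 had ratios higher than 55.6%, 61.5%, 66.4%, 74.0% and 96.4% of these promoters. POU3F1, at 73.8, belongs to the 519 bivalent promoters with a −Dox signal between 50 and 100, of which 37.2% had a ratio below 0.5 and whose median ratio was 0.603. Its own ratio of 0.414 was below that median. These groups were formed by the −Dox level alone. Over the 298 promoters grouped instead by a mean H3K27me3 signal of at least 100 over both conditions, the median log2 ratio was 0.04. Among these 298, POU4F1, POU3F2 and POU4F2 had ratios higher than 32.2%, 40.3% and 47.7% of promoters, so below the median, and POU3F3 and POU4F3 had ratios higher than 58.1% and 90.9%. Whether 3 of the 5 genes lay above or below the median for their level therefore depended on how the level was defined.

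**Figure D3:**
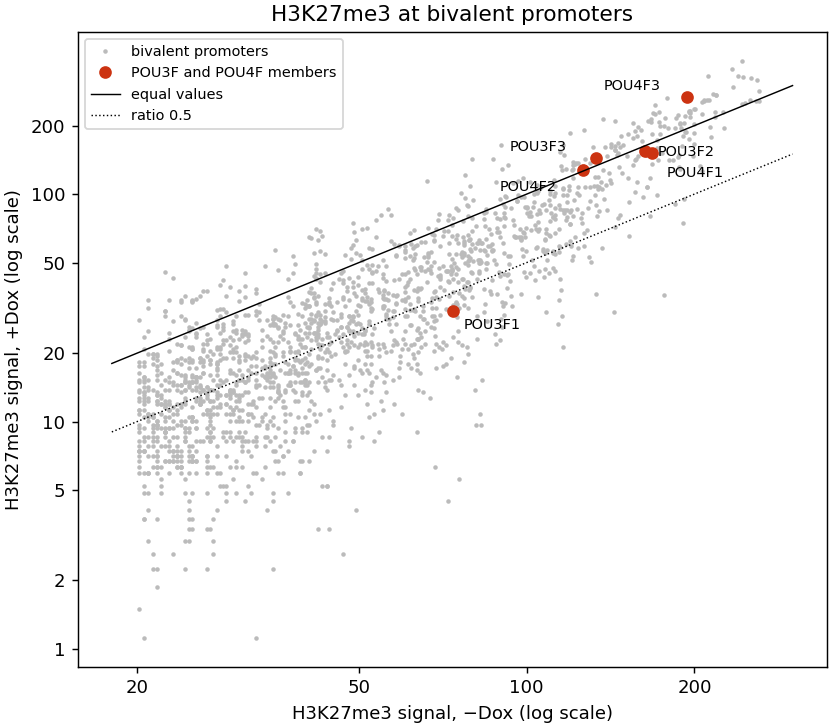
H3K27me3 signal in −Dox (x axis) and +Dox cells (y axis), both on log scales, at the 1907 bivalent promoters (grey) and the 6 POU promoters (red). The solid line marks equal values and the dotted line a ratio of 0.5. POU3F1 lies below the dotted line at 73.8 and 30.6, and the other 5 promoters lie near or above the solid line at the upper end.

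Summed over the 6 promoters, H3K27me3 was 858 without and 876 with Dox, which gave a ratio of 1.02 (0.917 to 1.14), whereas the sum over all promoters had a ratio of 0.850. The summed ratio was 0.891 (0.753 to 1.06) for the POU3F and 1.12 (0.972 to 1.28) for the POU4F genes. Since each value is scaled by its own library, a loss of the mark at all sites alike would be hidden, and a ratio near 1 does not show that its amount was kept. Scaling both H3K27me3 libraries to the same total multiplies every ratio by 1.18 and gives a summed ratio of 1.20. The ratios of POU3F2 and POU4F1 then lie above 1, at 1.12 and 1.06, which does not show a gain of the mark.

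At 4 of the 6 promoters, POU3F2, POU3F3, POU4F1 and POU4F3, the H3K4me3 ratio was below 1. With libraries scaled over low promoters it was also below 1 at POU4F2 (0.953). A ratio below 1 was found at 10342 of the 19678 promoters with a ratio and at 1289 of the 1907 bivalent promoters. It was found at 230 of the 304 with a −Dox H3K27me3 signal of at least 100, so this count does not set the 6 genes apart. POU3F2 had signals of 56.1 and 33.6, about 59 and 27 reads, and a ratio of 0.598 (0.365 to 0.959). POU4F1 had signals of 49.0 and 28.7, a ratio of 0.586 (0.338 to 0.962). The intervals of these 2 genes lay below 1, which was so for 3.07% of all promoters with a ratio, for 10% (191 of 1907) of bivalent promoters and for 18.4% of the bivalent promoters with a −Dox H3K27me3 signal of at least 100. Both upper bounds were close to 1, and the intervals included 1 when the read numbers were halved.

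POU4F3 had H3K4me3 signals of 32.8 and 18.6, about 35 and 15 reads, and the lowest ratio of the 6, 0.569 (0.285 to 1.05). Its interval included 1, but lay below 1 (0.261 to 0.966) when the libraries were scaled over low promoters. With a +Dox signal below 20 it was the 1 promoter of the 6 that was no longer bivalent in +Dox cells, where it was classed as H3K27me3-only. About 15 reads lie below the 16.1 that correspond to the threshold, so this change of class rests on very few reads.

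At the remaining 3 promoters H3K4me3 differed by less than counting error. The signals were 81.8 and 90.2 at POU3F1, a ratio of 1.10 (0.802 to 1.54). They were 39.0 and 33.9 at POU3F3, a ratio of 0.869 (0.510 to 1.43), and 30.5 and 31.7 at POU4F2, a ratio of 1.04 (0.608 to 1.84). An H3K4me3 ratio below 0.5 was found at 0 of the 6 promoters and at 5.33% of all, and an interval above 1 at 0 of the 6 and at 1.83% of all. The median log2 H3K4me3 ratio of the 6 was −0.47, against −0.03 over all promoters, −0.18 over bivalent promoters and −0.31 over those with a −Dox H3K27me3 signal of at least 100. Of the 15 pairs, 2 had an H3K4me3 ratio of ratios whose 95% interval excluded 1, POU3F1 with POU3F2 and with POU4F1, and 0 did after widening.

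The marks were then set side by side. At POU3F1 H3K27me3 was lower and H3K4me3 was 1.10 times its −Dox signal, while at POU4F3 H3K27me3 was higher and the H3K4me3 ratio was 0.569. Across the 304 bivalent promoters with a −Dox H3K27me3 signal of at least 100, the log2 ratios of the marks had a Pearson correlation of −0.57 and a Spearman correlation of −0.56. Across all 1907 bivalent promoters, which include POU3F1, both correlations were −0.36. The points share the same 4 libraries and are not replicates. Among the 304, the median H3K4me3 ratio was 1.06 at the 38 promoters whose H3K27me3 ratio was below 0.5, and 0.641 at the 104 whose H3K27me3 ratio was above 1. Among the 1907, these medians were 0.965 and 0.701. The POU genes of this set lay within this spread.

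**Figure D4:**
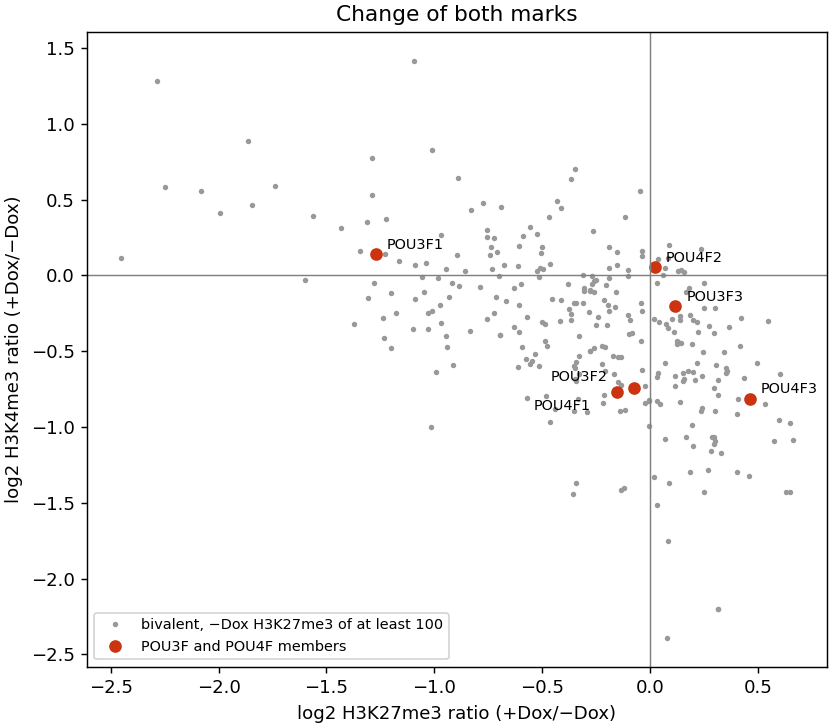
Log2 ratio (+Dox/−Dox) of H3K27me3 (x axis) and of H3K4me3 (y axis) at the 304 bivalent promoters with a −Dox H3K27me3 signal of at least 100 (grey) and the 6 POU promoters (red). POU3F1, whose −Dox signal is below 100, lies at −1.27 and 0.14, and POU4F3 at 0.46 and −0.81.

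The promoter most like each gene was found by the Euclidean distance of log2(signal + 1) over the 4 libraries. It was NRP1, a receptor for semaphorins and VEGF, for POU3F1 (distance 0.148), with H3K27me3 signals of 74.5 and 33.2 and H3K4me3 signals of 76.7 and 91.0. GRID1, a glutamate receptor subunit of the delta type, was nearest to both POU3F2 (0.284) and POU4F1 (0.340), and MSX2, a homeobox gene, to POU3F3 (0.247). SOX1, a neural SOX factor, was nearest to POU4F2 (0.279). FOXE1, a forkhead factor of the thyroid, was nearest to POU4F3 (0.168), with H3K27me3 signals of 208 and 257 and H3K4me3 signals of 31.9 and 17.2. All of these promoters were bivalent in −Dox cells.

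The 10 other POU genes in the files differed from the 6 in −Dox cells. None exceeded 20 for H3K27me3, with signals from 3.80 to 14.8, so 0 of the 10 were bivalent, 3 were H3K4me3-only and 7 were unmarked. Over all promoters 11.0% exceeded 20 for H3K27me3, 9.42% were bivalent, 54.2% H3K4me3-only and 34.8% unmarked. Having 0 of 10 bivalent is thus close to the share over all promoters. POU3F4, the fourth class III gene, had H3K27me3 signals of 4.56 and 0, about 4 reads and 0 reads, and H3K4me3 signals of 51.9 and 50.3. It therefore passed the threshold for H3K4me3 only, whereas the other 3 class III promoters passed it for both marks. POU2F1, a widely expressed factor, had 77.2 and 67.9 for H3K4me3. POU5F1, the pluripotency factor OCT4, had H3K4me3 signals of 5.41 and 3.73, but the start used in the files is 10049 bp away from the canonical start. The starts used for POU2F2, POU5F1B and POU2F3 are also away from the canonical ones, by 64139, 6841 and 3500 bp, so that 4 of the 7 unmarked windows do not measure the canonical promoter. The ratio interval included 1 for 10 of the 10 genes in each mark. Over all promoters with a ratio it did so for 17786 of 19462 in H3K27me3 and 18713 of 19678 in H3K4me3. With so few H3K27me3 reads at the 10 genes the interval could hardly exclude 1, so absence of change is not shown.

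Partners and targets of POU3F factors were described as a list of 12 genes, of which 4 were bivalent, 6 H3K4me3-only and 2 unmarked in −Dox cells. As a median over the 12, the log2 H3K27me3 ratio was −0.15, equal to that over all promoters. The interval lay below 1 for 3 of the 12, against 6.99% of all and 48.1% of bivalent promoters. EGR2, unmarked in −Dox cells, was measured 103534 bp from its canonical start. Values are given for 3 of the genes above 20 for H3K27me3. SOX3, a SOX factor of neural progenitors, had signals of 55.9 and 13.4, a ratio of 0.240. DLL1, a Notch ligand, had 21.7 and 6.34, a ratio of 0.292. SOX1 had 134 and 108, a ratio of 0.808. CRH, the corticotropin-releasing hormone, stood just below the threshold with 18.3 and 1.49, about 14 reads and 1 read, and is named because it is the third gene whose interval lay below 1. SOX2 and SOX11, known partners of class III POU factors, had high H3K4me3 signals of 157 and 178 in −Dox cells and little H3K27me3. The H3K4me3 interval included 1 for all 12 genes, as it did for 18713 of the 19678 promoters with a ratio.

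Inducers, partners and targets of POU4F factors formed a list of 14 genes. In −Dox cells 10 of them were bivalent and 4 unmarked, against 9.42% and 34.8% of all promoters. Of the unmarked genes, RUNX1 and RUNX3 were measured 955366 and 34734 bp from their canonical starts. The median log2 H3K27me3 ratio of the 14 was −0.52, with an interval below 1 for 5 of them and, with equal library totals, for 3. The corresponding shares were 6.99% and 4.44% of all promoters with a ratio, and 48.1% and 32.1% of bivalent promoters. As 10 of the 14 were bivalent, these counts do not set the list apart from bivalent promoters. Among the genes above 20, ATOH7, the proneural factor upstream of POU4F2 in the retina, had a ratio of 0.417 (0.174 to 0.886). With equal library totals its interval, 0.205 to 1.04, included 1. The ratio was 0.553 (0.258 to 1.14) for NTRK3, a neurotrophin receptor, and 0.572 (0.382 to 0.841) for NEUROG1, a proneural factor of sensory ganglia. The ratios of NTRK3 and NEUROG1 were close to the median of 0.570 over bivalent promoters, so they were low only within this list. The highest ratios were 0.974 at GFI1, a zinc finger gene downstream of POU4F3 in hair cells, and 0.927 at ISL1, a LIM homeodomain partner of POU4F factors. For GFI1 and ISL1 the signals were 121 and 118 and 62.4 and 57.8. H3K4me3 at ISL1 was 20.8 without and 39.1 with Dox, a ratio of 1.88 (1.07 to 3.44), the 1 interval of the list above 1, but it included 1 (0.983 to 3.15) with libraries scaled over low promoters. At NEUROG1 and NEUROD1 it lay below 1, with ratios of 0.333 and 0.368. Over all promoters with a ratio, the H3K4me3 interval lay above 1 for 1.83% and below 1 for 3.07%.

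Pluripotency genes were described by promoter marks only, as no expression was measured in these libraries. Of 9 pluripotency genes, 8 were H3K4me3-only and 0 were bivalent in −Dox cells, against 54.2% and 9.42% of all promoters. H3K4me3 signals were 51.6 at NANOG, 157 at SOX2 and 173 at DNMT3B. The H3K4me3-only class is common, so these marks alone do not identify the cell type. The exception was POU5F1 with its distant start. The start used for TDGF1 is also 3362 bp away from the canonical one. The H3K4me3 interval lay below 1 for 2 of the 9, UTF1 and LIN28A, against 3.07% of all promoters, and for UTF1 alone with equal library totals. The summed signal over all promoters was 251063 without and 213388 with Dox for H3K27me3, and 919251 and 896546 for H3K4me3. This came to between 172710 and 968961 approximate reads per library in the windows.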

How the data were processed

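ChIP-seq for H3K27me3 and H3K4me3 was available for −Dox and +Dox JMJD3c-hESCs, 1 library per group. The authors mapped single-end MiSeq reads to hg19 by Bowtie2 and excluded mitochondrial reads. The deposited signal is coverage from ngs.plot, scaled by library reads and summed over 3 kb on each side of 1 start per Ensembl gene. Versions of Bowtie2 and ngs.plot are not given in the sources used here. Whether a further scaling to the density after transcription ends, which the methods name, was applied could not be learned, and an input control was not used here.

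All values in a library were whole multiples of a step (tolerance 0.001 steps), 0.380 for H3K27me3 −Dox, 0.285 for H3K4me3 −Dox and 0.373 for both +Dox libraries. Read as 1 read at 1 data point, the step gives 2682085 reads for each +Dox library, and why these totals are equal is not stated. If 1 of them had been scaled by the total of the other, all ratios of that mark would carry an unknown common factor, which leaves comparisons between promoters within a mark unchanged. Values were divided by the step and by 3.33 data points per read, estimated from the histogram of low values, to give approximate reads, used only for intervals. Ratios carry 95% exact Clopper-Pearson intervals of the +Dox share of these reads, neighbours and pairs of genes exact intervals from the same reads. All cover counting error only, as the reads carry no molecular identifiers and may be copies of 1 molecule. Classes used the study's threshold of 20 on −Dox values. The intervals were checked on simulated Poisson reads (Python 3.11.15, SciPy 1.17.1), scored only at promoters with many reads. That simulation makes the same counting assumption as the intervals. It therefore does not test them for copied reads, for other sources of spread or at low read numbers.

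Positions are 1-based GRCh37 coordinates from GENCODE 44, in which 90.1% of 20242 deposited transcripts and 5 of 6 POU transcripts were found. Sequences are from RefSeq promoters (GRCh38.p14), placed by exact match in GRCh37. Individually described genes were the 6 POU genes, the most similar promoter to each, its nearest neighbours in the genome and, among list genes above 20 for H3K27me3 in −Dox, the 4 lowest and 2 highest ratios per list, except genes that are not reported here. Others named were chosen after their values were seen, as was the level range of 50 to 100. The genes and lists were chosen with earlier results of these data known.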

Additional observations from a re-analysis of the deposited data

How the results depend on the processing

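Each summary value of the 6 promoters was recomputed under another library scaling, pseudocounts of 1 and 5, other thresholds, fewer assumed reads, or filters of the promoters, as applicable. Of 42 recomputed summary values 38 stayed close to the reported value, that is, within its interval (for medians, the median of the promoters' interval bounds) or, for counts, within 1.5 times. The number of bivalent promoters was 3 with a class threshold of 40. The summed H3K27me3 ratio was 1.20 after scaling to the same total. The number of promoters with an H3K4me3 ratio below the fold threshold was 3 with a threshold of 0.66, and the number with an H3K4me3 interval below 1 was 0 with the reads halved. Fewer reads widen the intervals, and the counts at other thresholds follow from the thresholds themselves. All 48 recomputed ratios of single promoters stayed within their intervals. The H3K27me3 ratio of POU3F1 stayed below 1 and that of POU4F3 above 1 under both scalings and both pseudocounts. For the pseudocounts this was fixed in advance, since an equal addition to both values cannot move a ratio across 1. Both H3K27me3 scaling factors, 1.18 and 1.02, are above 1, so the POU4F3 ratio could only rise. Neither factor is large enough to bring the POU3F1 ratio of 0.414 to 1. These recomputations therefore do not test either direction. Leaving out promoters without a canonical start removed none of the 6, with POU4F3 placed at its current start. Leaving out promoters with a mean signal below 20 also removed none. The values recomputed with these filters were therefore the same by construction. They are counted among the 38, which overstates how much was tested. No paired analysis was possible because there was 1 library in every group. Leaving out a library was not possible either. Depth limits H3K4me3 most, with about 15 to 86 reads per promoter.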

Other observations

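The nearest promoters on each side of the 6 POU genes lay between 34059 and 2091515 bp away. Of these 12 neighbours, 1 exceeded 20 for H3K27me3 in −Dox cells, 8 were H3K4me3-only and 3 were unmarked. Over all promoters, 11.0% exceeded 20 for H3K27me3, 54.2% were H3K4me3-only and 34.8% were unmarked, and with 12 neighbours nothing is read from the difference. UTP11L, 34059 bp from POU3F1, had H3K27me3 signals of 9.13 and 5.97, and RNF219, 55603 bp from POU4F1, had 4.18 and 9.32. The exception was SLC10A7, a solute carrier gene 116929 bp from POU4F2, which was bivalent with H3K27me3 signals of 24.0 without and 9.69 with Dox and a ratio of 0.405 (0.156 to 0.987). At POU4F2 itself that ratio was 1.02. Between the promoters no values were measured in these files.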
